A study of Mus musculus with 16 samples.

Results

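The TAM receptor tyrosine kinases *Axl*, *Mertk* and *Tyro3* and their ligands *Gas6* and *Pros1* were examined in the RNA sequencing of brown adipose tissue (BAT). These 5 genes were listed by name from the 49066 gene symbols of the data. They were chosen by name, with the KO against WT TPM values of these libraries already known, so those values are given below as a description of the chosen genes. The 16 libraries were 4 of each genotype, WT and KO, in each sex. All were 18 weeks old, on a C57BL6/J background and fed a high-fat diet (HFD) for 12 weeks. KO mice carried homozygous floxed *Gdf15* alleles and a Cre recombinase driven by the *Ucp1* promoter, and the WT littermates carried the same floxed alleles without Cre. *Gdf15* was therefore deleted in *Ucp1*-expressing thermogenic adipocytes, while macrophages, endothelial cells, fibroblasts and the other cells of the depot kept the gene in both genotypes.

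TAM receptors sense dying cells. Gas6 and Pros1 (protein S) bind with one end to phosphatidylserine exposed on an apoptotic cell, and with the other to the receptor on a phagocyte or a neighbouring cell, which triggers engulfment and dampens inflammatory signalling. The ligands bind phosphatidylserine only after vitamin K-dependent gamma-carboxylation. Gas6 can activate each of the receptors, whereas Pros1 acts on Mertk and Tyro3, and is also an anticoagulant cofactor in plasma. Mertk is the main engulfment receptor of resident macrophages, Axl is also found on endothelial and stromal cells and is shed from the surface by proteases, and Tyro3 is best known from the nervous system.

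All 5 promoters were found in the RefSeq table of build GRCm38.p6, which gives 250 bases before and 50 after each gene's start. Those of *Axl* and *Gas6* are printed as examples. In TPM without further scaling, the KO and WT libraries of these genes overlapped neither in males nor in females. Capitals mark the GC box letters GGGCGG on either strand, where CCGCCC is the same motif read on the other strand. The *Axl* window is chr7:25788684-25788983 on the minus strand and the *Gas6* window is chr8:13494486-13494785 on the minus strand.
Axl promoter: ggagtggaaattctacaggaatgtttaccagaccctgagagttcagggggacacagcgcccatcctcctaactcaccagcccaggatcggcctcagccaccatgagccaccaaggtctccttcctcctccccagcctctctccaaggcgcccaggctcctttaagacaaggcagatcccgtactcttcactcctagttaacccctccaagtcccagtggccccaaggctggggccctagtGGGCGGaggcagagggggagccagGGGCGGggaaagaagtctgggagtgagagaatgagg
Gas6 promoter: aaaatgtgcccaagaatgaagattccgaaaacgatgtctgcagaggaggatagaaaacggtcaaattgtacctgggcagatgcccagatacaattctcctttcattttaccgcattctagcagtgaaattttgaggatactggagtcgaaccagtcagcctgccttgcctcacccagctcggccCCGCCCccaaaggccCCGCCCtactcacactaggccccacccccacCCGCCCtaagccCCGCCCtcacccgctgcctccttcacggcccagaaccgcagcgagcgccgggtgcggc

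Matches to GGGCGG numbered 2 in *Axl*, 4 in *Mertk*, 6 in *Tyro3*, 4 in *Gas6* and 5 in *Pros1*, with overlapping matches counted, and 35.7% of the 32851 promoters in the table held at least 1. GC content was 60.3% in *Axl*, 66.0% in *Mertk*, 73.3% in *Tyro3*, 58.3% in *Gas6* and 66.7% in *Pros1*, above the median of 52.7% over the table. The AP-1 letters TGANTCA, held by 7.81% of promoters, the letters CCAAT, held by 37.4%, and the TATA box letters TATAAA, held by 13.6%, were searched on both strands and matched none of the 5 windows. The direct repeat element of liver X receptors, which are known activators of *Mertk*, matched none of them either and was found in 0.0152% of promoters.

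Values are in TPM, a share of each library's transcripts corrected for transcript length, and were summed over the transcripts of a gene. Read depth is unknown. The deleted gene *Gdf15* had 1.60 ± 1.55 TPM in male WT and 0.175 ± 0.103 in male KO libraries, and 0.208 ± 0.116 in female WT libraries (SD, n = 4), while in female KO libraries it was listed at 0 in 3 of 4 and at 0.0794 TPM in the other. The male groups did not overlap, whereas the female groups did, since female WT 1 had 0.0622 TPM, so *Gdf15* did not separate the female genotypes in every library. The brown adipocyte marker *Ucp1* lay between 2353 and 4423 TPM in every library, so the labelled tissue's defining marker was present throughout. The mitochondrial genome gave 34.5 to 59.8% of a library's TPM. Skeletal muscle markers summed to between 75.1 and 4724 TPM, with over 1000 in 6 of the 16 libraries, and in female WT 4 the transcripts that matched no gene took 17.7% of the TPM against at most 0.480% elsewhere. Library names began with 5, 8b, 9 or 10, which the labels do not explain, and these prefixes were spread unevenly over the groups. The labels number the libraries within a group without saying that they are separate animals, so p-values measure the spread between these libraries. In bulk tissue, fewer cells of a type and less RNA per cell cannot be told apart.

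*Gas6* was the most abundant of the family and *Tyro3* the least. *Gas6* ranged from 9.56 to 21.96 TPM over the 16 libraries, *Axl* from 3.96 to 10.71, *Pros1* from 4.39 to 10.3, *Mertk* from 1.60 to 5.00 and *Tyro3* from 0.107 to 0.472. In this order of per-length levels *Gas6* exceeded each of the others, and *Mertk* exceeded *Tyro3*, in 16 of 16 libraries. *Axl* and *Pros1*, the neighbours in the middle of the order, had means of 6.67 and 6.39 TPM and overlapping ranges, and both exceeded *Mertk* in 16 of 16 libraries. By mean level *Gas6* stood above 92.6% of all genes, *Axl* above 86.6%, *Pros1* above 86.3%, *Mertk* above 80.7% and *Tyro3* above 68.2%.

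*Axl*, on chromosome 7 (ENSMUSG00000002602), encodes the receptor that prefers Gas6. Male WT libraries 1 to 4 had 3.96, 5.68, 5.42 and 5.22 TPM and male KO libraries had 8.17, 9.70, 9.81 and 10.71 TPM, so every male KO library lay above every male WT library. Female WT libraries had 5.12, 4.56, 5.20 and 5.41 TPM and female KO libraries had 7.54, 5.90, 5.66 and 8.68 TPM. The female groups did not overlap either, but the KO libraries 2 and 3 lay just above the highest WT value. Group means were 5.07 ± 0.762 in male WT, 9.60 ± 1.05 in male KO, 5.07 ± 0.362 in female WT and 6.95 ± 1.43 TPM in female KO mice (SD, n = 4). On the log2(TPM + 0.5) scale, which understates changes of low genes, the KO minus WT difference was 0.86 (SE 0.13) in males and 0.40 (SE 0.15) in females.

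*Mertk* (ENSMUSG00000014361), on chromosome 2, showed weaker separation. It had 1.60, 3.30, 2.29 and 2.63 TPM in male WT libraries 1 to 4 and 2.50, 3.37, 2.94 and 2.89 TPM in male KO libraries, and these ranges overlapped. The female WT libraries had 2.54, 1.77, 2.42 and 2.50 TPM and the female KO libraries 4.58, 2.58, 2.43 and 5.00 TPM. Female KO libraries 1 and 4 held the highest *Mertk* values of the series, while KO libraries 2 and 3 stood level with WT. The log2 difference was 0.24 (SE 0.18) in males and 0.51 (SE 0.23) in females.

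The receptor gene *Tyro3* (ENSMUSG00000027298), also on chromosome 2, stayed below 1 TPM in every library and did not enter the tests, which required a mean of at least 1 TPM. Its group means were 0.242 ± 0.0576 TPM in male WT, 0.316 ± 0.150 in male KO, 0.249 ± 0.156 in female WT and 0.295 ± 0.105 in female KO mice (SD, n = 4). KO and WT values overlapped in both sexes.

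Of the ligands, *Gas6* (ENSMUSG00000031451, chromosome 8) had 9.56, 15.1, 13.2 and 18.02 TPM in male WT libraries 1 to 4 and 19.4, 20.7, 20.6 and 20.1 TPM in male KO libraries. Male KO libraries were tightly grouped above a scattered WT group, with means of 20.2 ± 0.577 and 13.96 ± 3.54 TPM (SD, n = 4). In females the WT libraries had 11.8, 11.6, 11.5 and 12.7 TPM and the KO libraries 21.96, 14.3, 16.2 and 17.03 TPM. Here the WT libraries were the tight group, at 11.9 ± 0.566 TPM, and the KO libraries, at 17.4 ± 3.25 TPM, lay above all of them. The log2 difference was 0.55 (SE 0.17) in males and 0.51 (SE 0.14) in females. Exons of *Gas6* overlap those of *Tmem255b* on the opposite strand, which averaged 2.05 TPM. The libraries were stranded, but the strand setting used in quantification is not given in the sources used here, so a contribution from *Tmem255b* was not tested.

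*Pros1* (ENSMUSG00000022912, chromosome 16) encodes protein S. Male WT libraries 1 to 4 had 4.39, 6.25, 4.73 and 5.93 TPM and male KO libraries 6.29, 7.22, 7.98 and 8.46 TPM, so that the lowest KO value was just above the highest WT value. Female WT libraries had 5.62, 4.85, 5.52 and 4.87 TPM and female KO libraries 10.3, 6.62, 5.15 and 8.06 TPM. KO library 3 fell within the WT range, and KO libraries 1 and 4 were again the highest. The log2 difference was 0.46 (SE 0.14) in males and 0.45 (SE 0.19) in females.

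**Figure D1:**
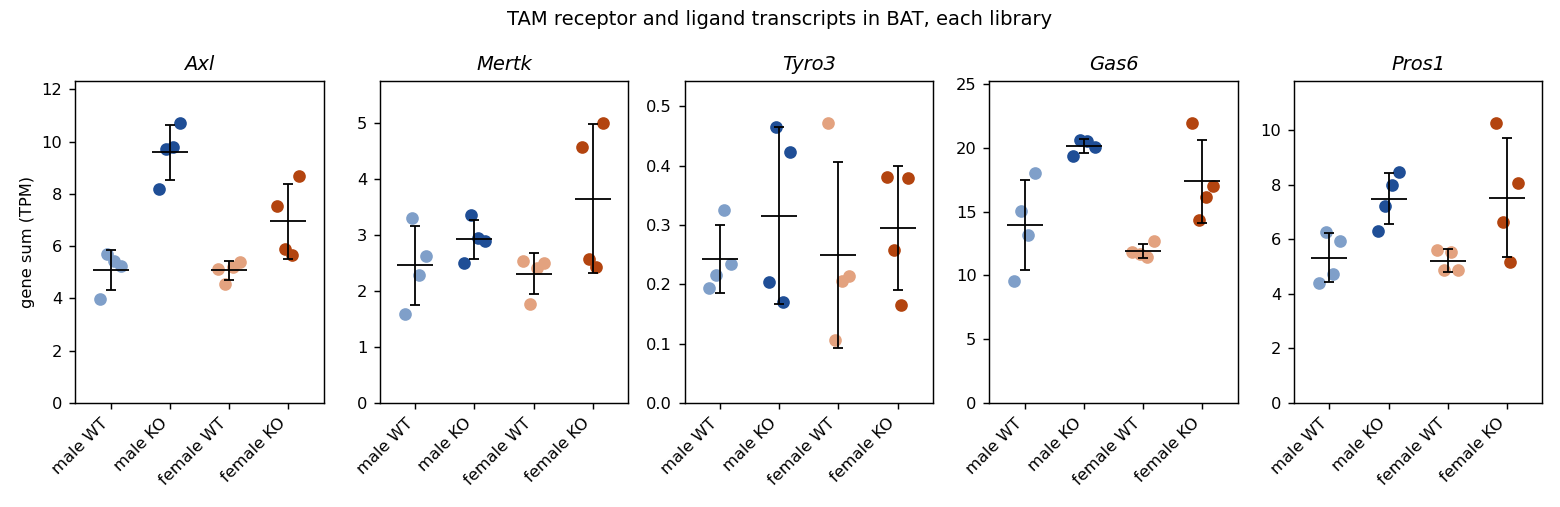
Gene sums in TPM (vertical axes, each from 0) of the 5 genes in each library, by group; lines are group means and bars are SD, n = 4. Male KO libraries sit above male WT libraries for Axl (8.17 to 10.71 against 3.96 to 5.68), Gas6 and Pros1, while Tyro3 stays under 0.5 TPM in all groups.

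Counted over the family, every KO library lay above every WT library for *Axl*, *Gas6* and *Pros1* in males, as it did for 9.54% of the 12177 genes tested, and for *Axl* and *Gas6* in females, as it did for 4.9% of 12141. Both sexes were separated this way for 0.737% of 12210 genes. Since the genes were chosen with these values known, nothing is read from the counts. In females the separation also depended on the scaling. After scaling by medians of ratios, which sets the typical gene to no change, no member was separated in females, and after rescaling without the mitochondrial genome *Axl* alone was. The 3 separations in males were kept under both.

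Tests were made across all genes with limma at a threshold of 0.05 on p after Benjamini-Hochberg adjustment over the genes tested. No member passed within a sex. In males the adjusted p was 0.121 for *Axl*, 0.203 for *Gas6*, 0.198 for *Pros1* and 0.484 for *Mertk*, and 0.00821% of genes passed (1 of 12177). At an unadjusted p under 0.05, 18.7% of genes passed, 2151 higher and 130 lower in KO, and after scaling by medians of ratios the split was 1011 higher and 877 lower. In females the adjusted p was 0.231 for *Gas6*, 0.250 for *Axl*, 0.272 for *Pros1* and 0.300 for *Mertk*, and 0 of 12141 genes passed, by limma, against 17.1% (2077) at an unadjusted p under 0.05. The typical gene was itself higher in KO libraries, with a median log2 difference of 0.16 in males and 0.10 in females. With that median taken to near 0 by medians of ratios, the difference in males was 0.70 for *Axl*, 0.38 for *Gas6*, 0.30 for *Pros1* and 0.10 for *Mertk*, and in females 0.31, 0.42, 0.36 and 0.43 in the same order.

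Averaged over the sexes in a fit to all 16 libraries, *Axl* and *Gas6* were past the threshold. The members were chosen with the KO against WT values known, so their adjusted p-values and pass counts are a description and not independent evidence. The mean log2 difference was 0.63 (SE 0.10, adjusted p = 0.0111) for *Axl*, 0.53 (SE 0.11, adjusted p = 0.0305) for *Gas6*, 0.46 (SE 0.12, adjusted p = 0.0515) for *Pros1* and 0.38 (SE 0.15, adjusted p = 0.155) for *Mertk*, by limma. Of 12210 genes 2.95% passed, 317 higher and 43 lower in KO, or 260 higher and 213 lower after scaling by medians of ratios. With a single library left out *Axl* passed in 16 of 16 fits and *Gas6* in 9 of 16. With the library name prefix as a covariate 12 genes passed and neither of these was among them, with differences of 0.53 (adjusted p = 0.0598) for *Axl* and 0.46 (adjusted p = 0.136) for *Gas6*. Over all alternatives run the mean difference stayed between 0.51 and 0.67 for *Axl* and between 0.40 and 0.60 for *Gas6*. Nor did either pass over the 10 libraries whose muscle markers summed to under 1000 TPM, where the differences were 0.66 (adjusted p = 0.0883) and 0.46 (adjusted p = 0.171).

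Within a prefix few libraries could be compared. Among males with prefix 9 (2 WT and 3 KO) the log2 difference was 0.86 for *Axl*, 0.39 for *Gas6*, 0.53 for *Pros1* and 0.27 for *Mertk*, so *Axl* matched its value over all male libraries. Male libraries with the prefixes 5 and 10 held 1 genotype each. In females the prefix 10 pair (1 WT and 1 KO) differed by 0.52 in *Axl*, 0.74 in *Mertk*, 0.86 in *Gas6* and 0.82 in *Pros1*, whereas the prefix 8b libraries (3 WT and 1 KO) differed by 0.15, 0.11, 0.43 and 0.02 in the same order. These female values rest on a single KO library each. Female libraries with the prefixes 5 and 9 were KO only.

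**Figure D2:**
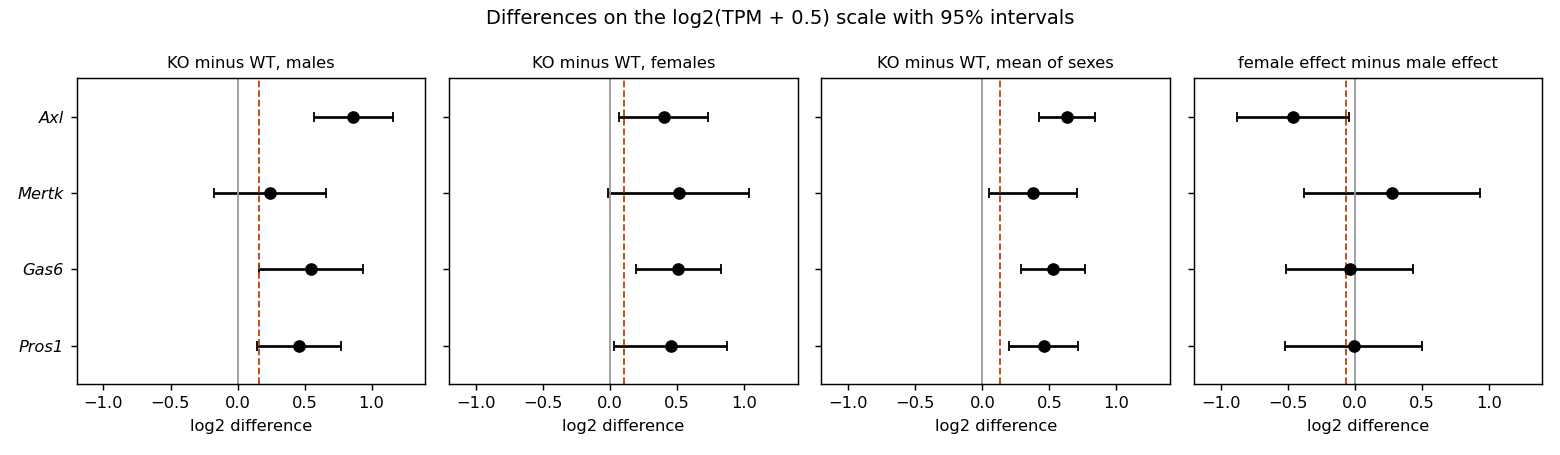
Differences on the log2(TPM + 0.5) scale (horizontal axes) of the 4 genes tested, as points with 95% intervals from limma; the dashed line is the median over all genes tested. The Axl point lies at 0.86 in males and 0.40 in females, and the Gas6 and Pros1 points lie near 0.5 in both sexes.

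An interaction term tested whether males and females differed in the KO effect. For *Axl* the female effect minus the male effect was -0.46 on the log2 scale (95% interval -0.88 to -0.05), with an adjusted p of 0.302 by limma. The interval was -0.38 to 0.93 for *Mertk*, -0.51 to 0.44 for *Gas6* and -0.52 to 0.50 for *Pros1*, so a difference between the sexes of either sign was within the error for these genes. Among all genes, 0 of 12210 passed by limma, and 14.2% (1737) had an unadjusted p under 0.05. In WT mice the female minus male difference was 0.01 for *Axl*, -0.05 for *Mertk*, -0.19 for *Gas6* and -0.02 for *Pros1* (adjusted p of 1 for each), while 0.0664% of 12042 genes passed. Male and female WT values overlapped for each of the 5 genes.

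In the values that were known when the genes were chosen, *Axl* took a larger share of the receptors in male KO than in male WT libraries. It made up 68.9, 61.7, 67.4 and 64.6% of the summed receptor TPM in male WT libraries and 75.1, 71.7, 75.9 and 76.4% in male KO libraries, without overlap. Female WT libraries had 62.9, 70.8, 66.5 and 66.6% and female KO libraries 60.3, 67.5, 68.5 and 61.7%, which overlapped. Put as a ratio of levels, *Axl* per *Mertk* averaged 2.14 in WT and 3.30 in KO males, and 2.23 in WT and 1.998 in KO females. Between the ligands the balance was steady, with *Gas6* at 67.5 to 75.9% of the ligand TPM over the 16 libraries and overlapping groups in both sexes.

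Transcripts within a gene were compared next, as the share of the gene's TPM carried by its most abundant transcript. *Axl* had 8 annotated transcripts, and Axl-201, which is protein coding, carried 84.5% of its TPM. *Mertk* had 2, the protein-coding Mertk-201 with 72.4% and the processed transcript Mertk-202 without a coding sequence. *Pros1* had 3, of which Pros1-201 carried 80.7%, and *Gas6* had 1.

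The share of Mertk-201 was 80.9 ± 15.2% in male WT and 63.7 ± 9.17% in male KO mice, and 82.2 ± 7.11% in female WT and 69.8 ± 9.72% in female KO mice (SD, n = 4). These differences, -17.2 and -12.4 percentage points, each had an exact two-sided permutation p of 0.114. Mertk-201 itself had 1.60, 2.85, 1.58 and 1.803 TPM in male WT libraries and 1.63, 1.96, 1.63 and 2.20 TPM in male KO libraries, which overlapped, and with only protein-coding transcripts counted the *Mertk* log2 difference was -0.04 in males and 0.29 in females. Mertk-202 had 0, 0.457, 0.712 and 0.831 TPM in male WT and 0.876, 1.41, 1.31 and 0.693 TPM in male KO libraries, which overlapped.

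Axl-201 carried 89.1 ± 3.10% in female WT and 79.1 ± 3.74% in female KO mice (SD, n = 4), without overlap, a difference of -9.96 percentage points with an exact permutation p of 0.0286, the smallest that 4 libraries against 4 allow. Over the 6 shares tested this became 0.171 after Benjamini-Hochberg adjustment, and 0 of the 6 passed the threshold. In males the Axl-201 share was 85.2% in WT and 86.0% in KO mice, and Axl-201 itself was separated, at 3.199, 5.22, 4.35 and 4.59 TPM in WT and 7.16, 9.01, 8.73 and 7.97 TPM in KO libraries. In females Axl-201 had 4.56, 4.23, 4.43 and 4.84 TPM in WT and 6.13, 4.59, 4.69 and 6.47 TPM in KO libraries, which overlapped although the *Axl* gene sums did not. With all its protein-coding transcripts counted, Axl-201 among them, the *Axl* log2 difference was 0.95 in males and 0.30 in females. For Pros1-201 the share was 87.2 ± 2.95% in male WT and 75.5 ± 8.50% in male KO mice (exact permutation p = 0.0857), and 82.2 and 82.6% in female WT and KO mice. Pros1-201 itself had 3.71, 5.59, 4.26 and 5.03 TPM in male WT and 4.82, 6.28, 5.66 and 5.72 TPM in male KO libraries, which overlapped although the *Pros1* gene sums did not. With only protein-coding transcripts counted the *Pros1* log2 difference was 0.26 in males, against 0.46 for the gene sum, and 0.44 in females. The error of dividing reads among transcripts that share exons cannot be given from TPM.

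**Figure D3:**
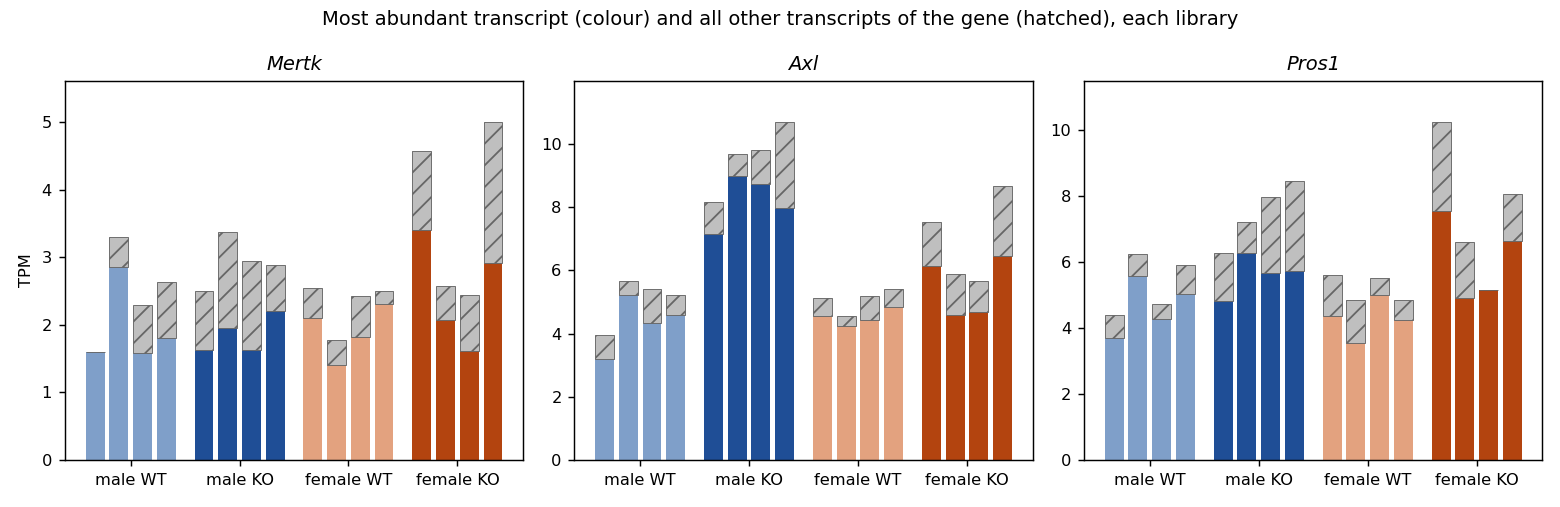
TPM (vertical axes) of the most abundant transcript of Mertk, Axl and Pros1 in colour, and of all other transcripts of the gene hatched, in one stacked bar per library. The coloured part of Axl reaches 7.16 to 9.01 TPM in male KO against 3.199 to 5.22 in male WT libraries, while the coloured part of Mertk overlaps between the male groups.

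The wider pathway was followed in gene lists by role. The lists were chosen with earlier results of these data known, so their counts and medians are a description. In none of the lists did a gene pass the adjusted threshold within a sex. The counts below are therefore of genes past it in the mean over both sexes by limma. Over the alternatives run, 9 to 1055 of all genes passed in that mean, and which called list genes stayed past the threshold is not given here. Among all genes 2.6% were called higher, 0.352% were called lower and 21.4% were higher at an unadjusted p under 0.05. The median log2 difference over all genes was 0.13. Among 18 other phosphatidylserine receptors 7 were tested and 1 was called, *Stab1*, the scavenger receptor stabilin-1, at 0.63 (SE 0.15, adjusted p = 0.0370), and the list's median was 0.31. Of the other receptors, *Lrp1* differed by 0.35 (adjusted p = 0.119) and the integrin subunit gene *Itgb5* by 0.10 (adjusted p = 0.571). *Trem2*, a lipid-sensing macrophage receptor, differed by 1.46 in males (adjusted p = 0.123), where its mean was 1.203 TPM. Male WT libraries averaged only 0.406 TPM, so *Trem2* met the minimum of 1 TPM in males only through the KO libraries. It averaged 0.357 TPM in females, where it was not tested.

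Other bridging proteins, which coat dying cells as Gas6 and Pros1 do, had the highest median of the pathway lists, 0.48, with 8 of 12 tested. The complement C1q chains *C1qa* at 0.65 (SE 0.16, adjusted p = 0.0424) and *C1qb* at 0.73 (SE 0.18, adjusted p = 0.0427) were called higher, and both are also on the list of macrophage markers. *C1qc* at 0.61 (adjusted p = 0.0544) and the galectin gene *Lgals3* at 0.92 (adjusted p = 0.0590) missed the threshold. This list had a median of 0.90 in males and 0.12 in females, where the medians over all genes were 0.16 and 0.10. *Lgals3* alone was at 1.82 (SE 0.42) in males and 0.01 (SE 0.23) in females. Its female effect minus its male effect was -1.81 (SE 0.51), with an adjusted p of 0.215 by limma. For this difference between the sexes 0 of the 8 genes tested on the list passed.

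Engulfment machinery had 15 of 17 genes tested, a median of 0.24 and 1 gene called, *Ucp2*, a mitochondrial carrier that phagocytes use during engulfment, at 0.90 (SE 0.17, adjusted p = 0.0226). *Rac1*, the GTPase that drives closure of the phagocytic cup, was at 0.24 (adjusted p = 0.105), *Abca7* at 0.24 (adjusted p = 0.139) and *Elmo2* at 0.15 (adjusted p = 0.336). Find-me and eat-me signals and their receptors had 11 of 14 tested and a median of 0.17. There *P2ry2*, the receptor by which phagocytes sense nucleotides from dying cells, was called at 0.52 (SE 0.10, adjusted p = 0.0244), and the sphingosine-1-phosphate receptor gene *S1pr1* was at 0.75 (adjusted p = 0.0544).

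Genes for the gamma-carboxylation that activates the ligands (5 of 6 tested, 0 called by limma, 1 at an unadjusted p under 0.05) had a median of 0.08, with *Ggcx*, the carboxylase itself, at 0.08 (SE 0.10, adjusted p = 0.638), *Vkorc1l1* at -0.09 (adjusted p = 0.512) and *Furin* at 0.10 (adjusted p = 0.578). Among 13 other gla proteins, which carry the same modification, 5 were tested and the mineralisation inhibitor gene *Mgp* was called at 0.60 (SE 0.15, adjusted p = 0.0487), while *Procr* was at 0.41 (adjusted p = 0.120).

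For shedding of the receptors, all 5 listed genes were tested and 0 were called by limma, with 4 at an unadjusted p under 0.05 and a median of 0.31. *Timp3*, an inhibitor of the sheddases, was at 0.56 (SE 0.16, adjusted p = 0.0622), and the sheddases *Adam17* and *Adam10* were at 0.28 (adjusted p = 0.127) and 0.14 (adjusted p = 0.321). Downstream of the receptors 10 of 14 genes were tested and the adaptor gene *Nck2* was called at 0.43 (SE 0.09, adjusted p = 0.0258), with *Akt1* at 0.33 (adjusted p = 0.116), *Grb2* at 0.28 (adjusted p = 0.154) and a list median of 0.09. Regulators of *Mertk* had 10 of 10 tested, 0 called by limma, 5 at an unadjusted p under 0.05 and a median of 0.27. Of these, the nuclear receptor genes *Ppard* and *Rxra* were at 0.22 (adjusted p = 0.178) and 0.19 (adjusted p = 0.162).

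Cell type markers also differed between KO and WT libraries. The 18 macrophage markers summed to 55.2 to 104 TPM in male WT and 137 to 203 TPM in male KO libraries, with 11 markers higher in every KO than in every WT library (9.54% of all genes tested were), but to 63.5 to 141 in female WT and 88.0 to 126 TPM in female KO libraries, with 0 separated in this way (4.9% of all genes tested were). The 12 endothelial markers summed to 305 to 604 TPM in male WT and 497 to 581 in male KO libraries (1 separated), and to 279 to 446 in female WT and 476 to 974 TPM in female KO libraries (6 separated). Fibroblast and progenitor markers summed to 202 to 330 in male WT, 362 to 389 in male KO, 239 to 321 in female WT and 277 to 481 TPM in female KO libraries (6 of 13 separated in males, 2 in females). In females 11 of the 13 had a higher mean in KO, but much of the rise in the sum came from *Ly6a*. It averaged 69.8 TPM in female WT and 125 TPM in female KO libraries, where the sums averaged 271 and 361 TPM. Mural cell markers summed to 127 to 197 TPM in male WT and 188 to 232 TPM in male KO libraries (2 of 8 separated). In females they summed to 131 to 159 TPM in WT and 173 to 285 TPM in KO libraries (1 separated). No macrophage, endothelial or fibroblast marker was at 0 in any library. The part of these cell types in the differences of *Axl*, *Mertk*, *Gas6* and *Pros1* was not tested.

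The 2 female KO libraries with the most *Mertk*, 4.58 TPM in library 1 and 5.00 in library 4, were also those with the highest endothelial sums of the series, 974 and 725 TPM. Pearson correlations with the log2 summed markers over the 16 libraries are given as a description over points that share groups and scaling. The highest were *Mertk* with endothelial cells (0.94), *Axl* with macrophages (0.84), and *Pros1* and *Gas6* with fibroblasts and progenitors (0.90 and 0.85). Other lists came close. Mural cells were at 0.90 for *Mertk*, 0.84 for *Pros1* and 0.83 for *Gas6*. *Pros1* was at 0.87 with both the endothelial and the dendritic cell sums, and *Axl* at 0.79 with fibroblasts and progenitors. Only 1 of the 8 dendritic cell markers, *Zbtb46*, averaged at least 1 TPM, so the dendritic cell sum was mostly *Zbtb46*. Whether these correlations differ from each other was not tested. *Mertk* correlated at 0.51 with the macrophage sum. Skeletal muscle markers, which varied most between libraries, correlated at 0.02 with *Axl*, -0.22 with *Mertk*, 0.04 with *Gas6* and -0.22 with *Pros1*. Neutrophil markers summed to at most 15.4 TPM and lymphocyte markers to at most 8.15 TPM, and the neutrophil gene *Ly6g* was listed at 0 in 15 libraries. Dendritic cell markers summed to 5.02 to 13.04 TPM, mural cell markers to 127 to 285, Schwann cell and neuron markers to 67.8 to 217 and brown adipocyte markers to 10489 to 20532 TPM. Most of the Schwann cell and neuron sum was *S100b*, which averaged 161 TPM in male WT, 178 in male KO, 119 in female WT and 80.4 in female KO libraries. Only 4 of those 10 markers averaged at least 1 TPM.

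**Figure D4:**
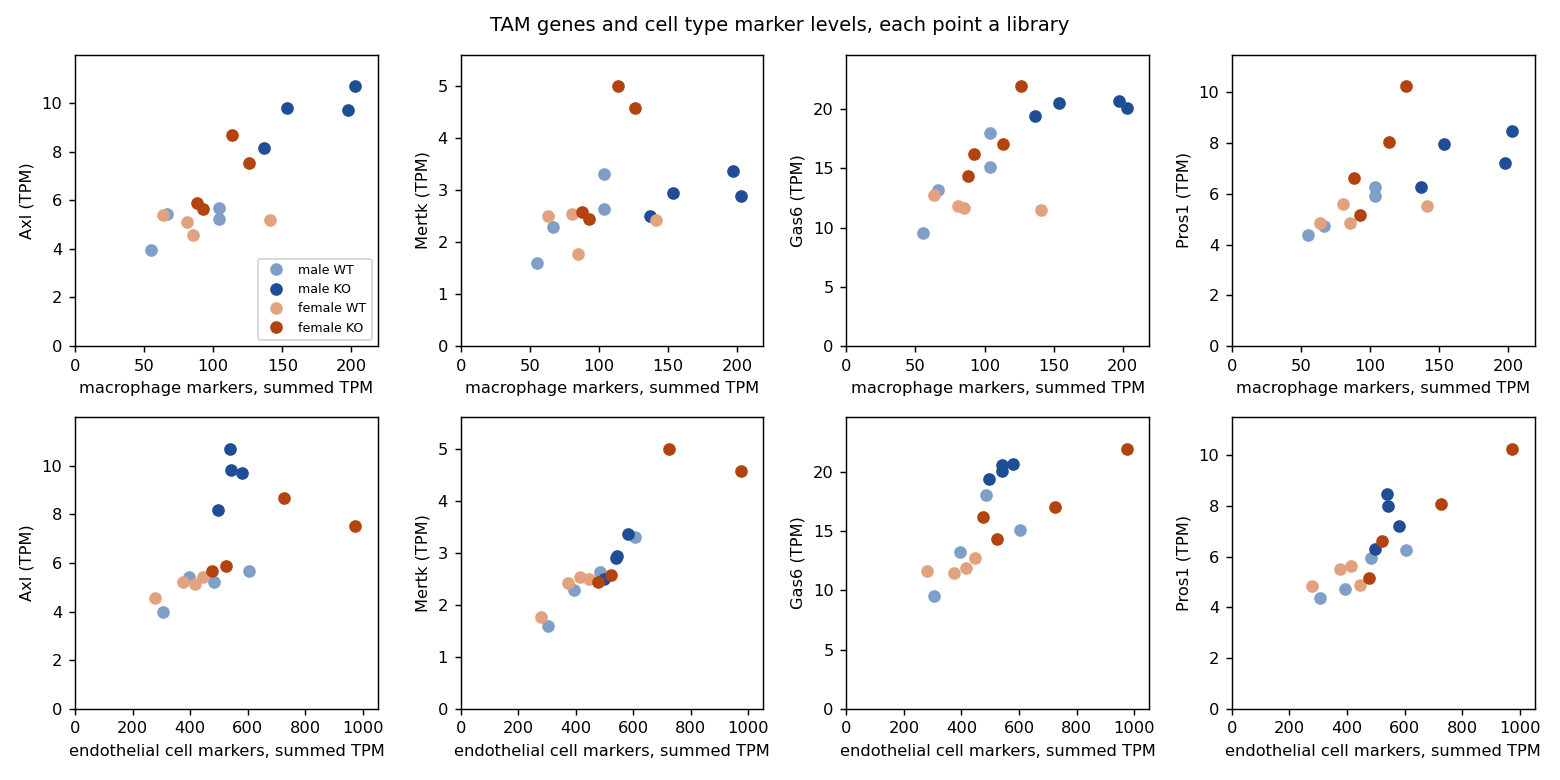
TPM of Axl, Mertk, Gas6 and Pros1 (vertical axes) against the summed TPM of macrophage markers (upper row) and endothelial cell markers (lower row), each point a library. Axl is highest in the male KO libraries with macrophage sums of 137 to 203 TPM, and Mertk is highest in the female KO libraries with endothelial sums of 725 and 974 TPM.

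Members resembled each other across the libraries, again as a description over 16 points that share group and scaling. *Axl* correlated with *Gas6* at 0.86, with *Pros1* at 0.82 and with *Mertk* at 0.66, where the median correlation of *Axl* with all genes was 0.35. After group means were removed, *Axl* and *Mertk* correlated most, at 0.91, and *Axl* and *Gas6* at 0.61. The median over all genes was not computed for values with group means removed, so these have no background beside them. The genes with the pattern most like *Axl* were *Cdk2ap1*, *Vat1* and *Ppp1r2* (0.94 each), and those most like *Mertk* were *Tmem44*, *Fli1* and *Arhgap31* (0.96 each). *Gas6* was most like *Tagln2* (0.95), *Sept8* (0.95) and *Pea15a* (0.94), and *Pros1* most like *Hpcal1* (0.96), *Thsd1* (0.95) and *Wwtr1* (0.94).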

How the data were processed

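Poly(A) RNA of BAT was sequenced by the authors from stranded libraries and quantified with kallisto 0.46.2 on build GRCm39, per the submitters' processing notes and the study's methods. The authors deposited transcript-level TPM, which are scaled to a fixed sum, so depth is unknown and no counting interval is given. The authors tested counts with DESeq2, which TPM do not allow. The annotation release behind the values is not given in the sources used here.

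Of 137438 transcript identifiers, 135051 matched GENCODE mouse release 21 without version number (37 with it), and 2387 did not. TPM were summed to 49066 symbols, and no coordinates of that release are printed because the builds differ. Groups and replicate numbers came from the labels, 0 columns lay outside the samples, and no libraries were identical. Genes with a mean of at least 1 TPM were tested on log2(TPM + 0.5) with limma 3.58.1 in R 4.3.3 (lmFit, eBayes with trend), within each sex, and over 16 libraries for the interaction and the mean effect. The script was tested on simulated data. Transcript shares were compared by exact two-sided permutation in scipy 1.17.1, for genes with at least 2 transcripts of at least 0.1 TPM.

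The members and lists were chosen with earlier results of these data known. Named were the 5 members, *Gdf15*, up to 4 genes per list (those past the adjusted threshold, then the smallest p in males), and the 3 genes most correlated with each member. Some genes that this rule names are not reported here. Defining markers (*Ucp1*, *Ly6g*) were named from the marker lists, as were markers that made up much of a list's sum (*Zbtb46*, *Ly6a*, *S100b*). Alternatives were pseudocounts of 1 and 0.1, no minimum or a minimum of 5 TPM, medians of ratios, rescaling without the mitochondrial genome, eBayes without trend, a replicate block, the prefix as covariate or prefix 9 alone, a fit of all libraries, and leaving out each library. Protein-coding transcripts only, prefixes 10 and 8b only, and libraries low in muscle markers were added after seeing the data.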

Additional observations from a re-analysis of the deposited data

Results flagged for a closer look

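In each group of 4 libraries, the highest or lowest value was set against the other 3 by Dixon's criterion at the 95% level, which chance meets in about 1 in 20 groups. Of 124 groups tested, 10 met it. Several measures are built from the same values, so the groups are not independent and this count cannot be set against that rate.

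*Mertk* in female WT library 2 was 1.77 TPM, below the 2.42 to 2.54 TPM of the other 3, and its share of the receptor TPM there was 27.5% against 30.8 to 31.3%. In female KO library 3 *Gas6* made up 75.9% of the ligand TPM against 67.9 to 68.4%, and *Gas6* per *Pros1* was 3.14 against 2.11 to 2.17. *Gdf15* was 0.0794 TPM in female KO library 3 and 0 in the other 3, beside which any value above 0 meets the criterion.

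Outside the family, transcripts that matched no gene took 17.7% of female WT library 4, against 0.347 to 0.450% in the others. Lymphocyte markers summed to 5.12 TPM in male KO library 4 (3.46 to 3.65 in the others), and neutrophil markers to 15.4 TPM in male WT library 4 (3.27 to 4.81 in the others). Skeletal muscle markers summed to 1474 TPM in female WT library 2 (75.1 to 176 in the others) and to 4194 TPM in female KO library 3 (85.6 to 468 in the others).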

How the results depend on the processing

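Of the members 4 could be tested, *Tyro3* being too low, and TPM give no depth, so precision rests on 4 libraries per group. Adjusted p-values for the mean effect moved with the number of genes past the threshold in the whole table, which ranged from 31 to 1055 as single libraries were left out. *Axl* stayed past the threshold in 16 of 16 such fits (adjusted p 0.00809 to 0.0353), *Gas6* in 9 of 16 (0.0172 to 0.0686) and *Pros1* in 3 of 16 (0.0219 to 0.109). *Gas6* was lost without male WT 3 (0.0645), male KO 2 (0.0685), 3 (0.0686) or 4 (0.0559), female WT 2 (0.0616), or female KO 1 (0.0680) or 4 (0.0655), with log2 differences of 0.45 to 0.60 over the 16 fits. *Pros1* gained without male WT 2 (0.0296), female KO 2 (0.0471) or female KO 3 (0.0219). Members past the threshold numbered 1 to 3.

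Genes past the threshold, by setting, were as follows. In males the count was 1 and became 2 with a pseudocount of 0.1, 0 with no minimum TPM, 3 with medians of ratios, 12 without the mitochondrial genome, 6 with the prefix as covariate, 9 with prefix 9 alone, 38 in the fit of all libraries, 20 with protein-coding transcripts only, 9 in libraries low in muscle markers, and 0 to 5 with a library left out. *Axl* was the 1 member called in males in the fit of all libraries (adjusted p = 0.0298) and with protein-coding transcripts only (0.0499). In females the count was 0 and became 8 with the prefix as covariate, 8 with prefixes 10 and 8b only, 5 in the fit of all libraries, 2 in libraries low in muscle markers, and 0 to 9 with a library left out. For the difference between the sexes it was 0, with 1 without trend, 3 in libraries low in muscle markers, and 0 to 3 with a library left out. For the mean effect it was 360, with 54 with no minimum TPM, 177 with a minimum of 5, 543 without the mitochondrial genome, 12 with the prefix as covariate, 720 with protein-coding transcripts only, and 9 in libraries low in muscle markers. Members past it were 1 with no minimum TPM, where *Gas6* was lost (0.0730), and 0 with the prefix or in libraries low in muscle markers. Between the WT sexes it was 8, with 3 at a minimum of 5, 4 with protein-coding transcripts only, 17 in libraries low in muscle markers, and 5 to 11 with a library left out. The cause of these moves was not tested.

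Differences near 0 changed sign. *Mertk* in males was -0.0407 with protein-coding transcripts only. The difference between the sexes became 0.0315 for *Gas6* and 0.0575 for *Pros1* with medians of ratios, 0.20 for *Gas6* with the prefix, 0.19 for *Pros1* with protein-coding transcripts only, and 0.139 for *Gas6* and 0.0559 for *Pros1* in libraries low in muscle markers. With a library left out it ran from -0.17 to 0.12 for *Gas6* and -0.16 to 0.15 for *Pros1*. The WT sex difference became 0.0204 for *Pros1* with medians of ratios, 0.0088 without the mitochondrial genome, and -0.0199 for *Axl*, 0.0145 for *Mertk* and 0.0069 for *Pros1* in libraries low in muscle markers. With a library left out it ran from -0.094 to 0.0623 for *Axl*, -0.205 to 0.081 for *Mertk* and -0.097 to 0.0587 for *Pros1*. The share of Axl-201 in males ran from -1.50 to 4.64 percentage points and that of Pros1-201 in females from -5.35 to 3.43. The KO minus WT differences of *Axl*, *Gas6* and *Pros1* stayed positive within both sexes under every alternative run.

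Replicate numbers were checked for pairing. Deviations of same-numbered libraries correlated between -0.12 and 0.35, and not every pair exceeded 0.1, so the numbers were not taken as pairs, and 2 or 3 of 8 libraries per comparison correlated best with their own number. With the replicate number as a block, genes past the threshold were 0 in males, 1 in females and 60 in the mean effect, where 1 member passed, *Axl* (adjusted p = 0.0211), and *Gas6* did not (0.0651).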
